A study of Mus musculus with 3 samples.

Results

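The clustered protocadherins are 59 genes of the 24421 in the deposited counts, taken as every symbol that starts with Pcdha (15 genes), Pcdhb (22 genes) or Pcdhg (22 genes). Clustered protocadherins are cell surface proteins of the cadherin superfamily that bind the same isoform on a neighbouring cell, and they are best known in neurons, where each cell uses its own combination of isoforms as an identity label. Every alpha and gamma isoform starts from a promoter and a large variable exon of its own, which is spliced to constant exons that all isoforms of the cluster share, while the beta genes consist of a single variable exon. CTCF and cohesin bring the chosen promoter to a distant enhancer, and DNA methylation and SMCHD1 keep promoters that are not chosen silent.

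RNA-Seq was performed in EL16.7, a female mouse ES cell line (background F2:129S1/CastEiJx 129S1, wild type) to ask how NUP153, a protein of the nuclear basket of the nuclear pore complex, affects transcription. The control culture received lentivirus with a scramble shRNA, and the NUP153 KD-1 and NUP153 KD-2 cultures received a different NUP153-specific shRNA each. All 3 cultures grew undifferentiated with LIF on γ-irradiated feeder fibroblasts from DR4 mouse embryos, and were selected for 2 days with 2 μg/ml puromycin. Each condition was sequenced in 1 library, so no spread between replicates exists for a single knockdown, and both knockdowns were compared to the same control. Knockdown was by shRNA in a population of cells, and the feeders were not reported as removed in the sources used here.

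The control library held 72344726 reads on genes, that of KD-1 85258834 and that of KD-2 69839336. Nup153 itself had 27870 reads in control, 16451 under KD-1 and 11126 under KD-2, a log2 ratio to control of -0.99 and -1.43. The 3 libraries also differed in fibroblast markers: 18 genes such as Col3a1, Postn and Lum summed to 188421 reads in control, 136299 under KD-1 and 377488 under KD-2. After scaling this was a log2 ratio of -0.70 under KD-1 and 0.90 under KD-2, with 10 of 18 markers over 1.5-fold lower under KD-1, where 5.62% of all genes were, and 16 of 18 over 1.5-fold higher under KD-2, where 17.1% were. The 12 ES cell markers moved less in sum, with a log2 ratio of 0.12 under KD-1 and -0.44 under KD-2. Under KD-1 1 of them was over 1.5-fold higher and 0 lower, where 8.63% and 5.62% of all genes were. Under KD-2 1 was higher and 3 were lower, where 17.1% and 10.2% of all genes were. The 12 neural markers summed to 27284, 31320 and 20941 reads, of which Stmn2 and Tubb3 had 14594 and 11814 in control, while the neural regulator Sox1 had 8 to 24 reads per library. In bulk RNA, fewer cells of a type and less RNA per cell cannot be told apart.

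The 3 clusters lie in tandem on chromosome 18 of the mouse genome (GRCm38, the same assembly as mm10; RefSeq gene positions). The alpha genes span 36930285 to 37188897, the beta genes 37264998 to 37521419, and the gamma genes 37661775 to 37841873. Most alpha genes end within a few bases of each other, as do most gamma genes, since they share their constant exons, while Pcdha6 ends further on and Pcdhgb8 ends earlier. Reads on shared exons cannot be given to 1 isoform and may be counted as ambiguous, a class that held 1.65% of all reads in control, 1.53% under KD-1 and 1.45% under KD-2. Judged by 50-base windows of GENCODE transcripts that occur in no other gene, a median of 95.5% of a beta gene could be counted, but only 55.1% of a gamma gene and 40.7% of an alpha gene. If reads on shared exons were left out of the counts, the values mostly describe variable exons. Windows shared with another gene were fewest in the beta cluster.

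Clustered protocadherins were expressed at a low level in control ES cell cultures, and most of their reads came from the gamma cluster. In total 4130 reads fell on the 59 genes in control, 4901 under KD-1 and 7174 under KD-2, or 57.1, 57.5 and 103 per 1000000 reads on genes. The gamma cluster gave 71.8% of these reads in control, 78.0% under KD-1 and 67.1% under KD-2. The beta cluster gave 24.3%, 19.5% and 29.5%, and the alpha cluster 3.85%, 2.49% and 3.46%, in the same order. KD-2 thus had the largest beta share of the 3 libraries and KD-1 the largest gamma share.

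Levels of different isoforms were compared as reads per kilobase of countable sequence and per 1000000 reads on genes. In control the median level was 0.507 over 22 gamma genes and 0.112 over 22 beta genes, and it was 0 over the 13 alpha genes that had a transcript model. The isoform with the highest level was Pcdhgc3, a C-type isoform that is also used outside the nervous system, at 2.91 in control (95% counting interval 2.67 to 3.17), 3.24 under KD-1 and 6.15 under KD-2. Its interval lay apart from that of the next isoform, Pcdhgb2, at 1.40 in control. The following isoforms, Pcdhga1 at 1.07 (0.938 to 1.21), Pcdhga10 at 0.976 (0.840 to 1.13) and Pcdhga7 at 0.907 (0.786 to 1.04), had overlapping intervals and are not ordered by these data. A level over 1 was reached by 3 gamma genes in control, 4 under KD-1 and 8 under KD-2. In KD-2 it was also reached by 1 beta gene, Pcdhb22, and by 1 alpha gene, Pcdhac2.

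**Figure D1:**
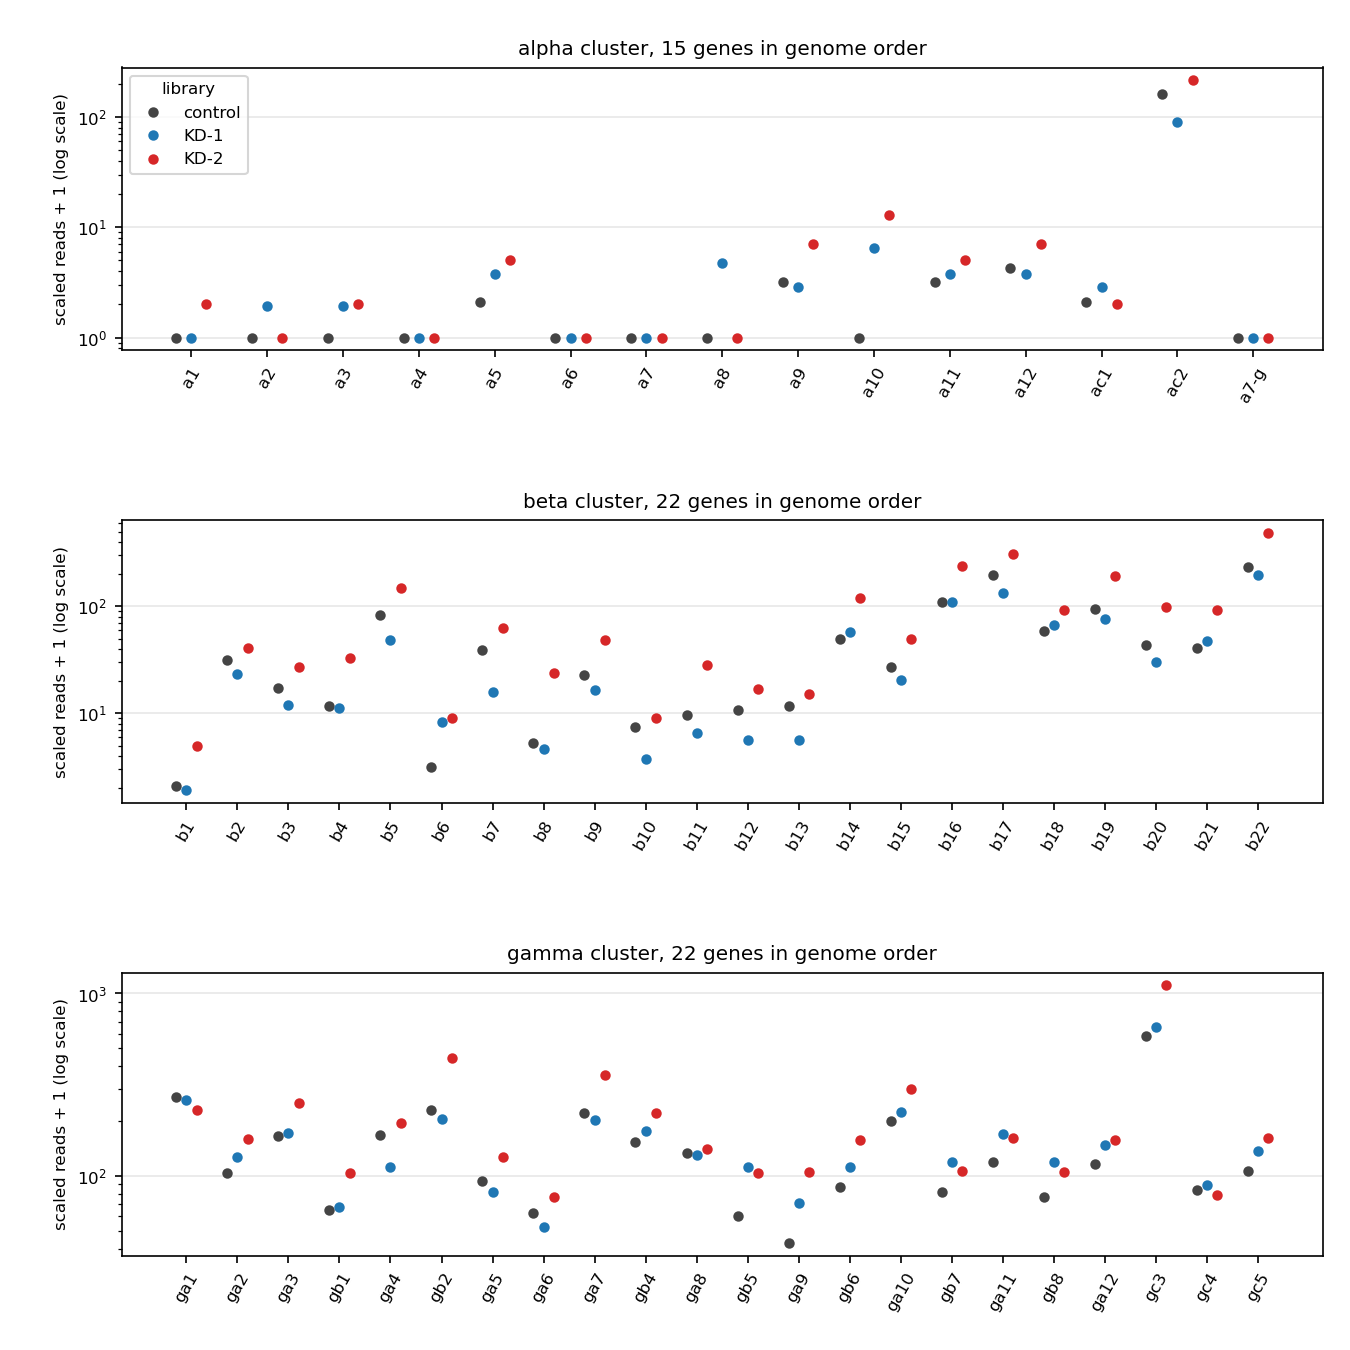
Reads of each clustered protocadherin in the 3 libraries, as scaled reads plus 1 on a log axis, with 1 point per library and the genes in genome order within each cluster. Pcdha7-g, which had no position under its own symbol, is drawn last in the alpha panel. Most beta genes are highest in KD-2, Pcdhac2 stands above the other alpha isoforms, and Pcdhgc3 above the other gamma isoforms.

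In the comparisons below, a gene was assessed when its reads averaged 10 or more per library, which held for 16670 genes and 41 clustered protocadherins: 1 alpha, 18 beta and 22 gamma genes. Log2 ratios are of reads scaled by the upper quartile, and their 95% intervals are exact conditional binomial intervals that cover the counting of reads only. A gene was counted as higher or lower when it differed over 1.5-fold. Counts of genes whose interval also leaves out no difference are given where they differ or where they are named, and no p-value was computed here for a comparison of 2 libraries.

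The beta cluster lay on opposite sides of control in the knockdowns. Its 22 genes summed to 1004 reads in control, 955 under KD-1 and 2115 under KD-2. Relative to control this was a log2 ratio of -0.30 (interval -0.43 to -0.17) under KD-1 and of 0.97 (0.86 to 1.08) under KD-2, or 1.96-fold higher. KD-1 lay below KD-2 by a log2 ratio of -1.27 (-1.38 to -1.16). The median over the 18 assessed beta genes was -0.43 in KD-1, against 0.02 over all genes assessed, and 15 of the 18 had a negative log2 ratio. In KD-2 their median was 1.04 against -0.02 over all genes, and all 18 had a positive log2 ratio. Of these 18, Pcdhb8, Pcdhb11 and Pcdhb12 had under 10 reads in control and in KD-1 and reached the minimum only through KD-2, and the median over the other 15 was 1.02.

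Pcdhb22, the last gene of the cluster and the beta isoform with most reads, had 215 reads in control, 213 under KD-1 and 483 under KD-2. Its log2 ratio to control was -0.24 (-0.52 to 0.04) under KD-1 and 1.06 (0.83 to 1.30) under KD-2. Pcdhb16, with 100, 117 and 236 reads in control, KD-1 and KD-2, and Pcdhb19, with 87, 82 and 190, had the same form. Both were close to control in KD-1, at 0.00 and -0.31 with intervals that hold 0, and about as far above it in KD-2 as Pcdhb22, at 1.13 and 1.02. Pcdhb17 had 179 reads in control, 144 under KD-1 and 306 under KD-2, and here both intervals leave out no difference, at -0.54 (-0.87 to -0.22) and 0.67 (0.40 to 0.94).

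Pcdhb5 and Pcdhb7 differed from control over 1.5-fold in opposite directions. Pcdhb5 had 76 reads in control, 52 under KD-1 and 148 under KD-2, log2 ratios of -0.77 (-1.31 to -0.25) and 0.85 (0.45 to 1.27). Pcdhb7 had 35, 16 and 61 reads, log2 ratios of -1.33 (-2.31 to -0.47) and 0.69 (0.07 to 1.34). For both genes control lay between the knockdown libraries. Opposite differences over 1.5-fold with both intervals leaving out no difference were met by these 2 of 41 genes (4.88%) and by 1.88% of all genes. Pcdhb8, named after its value was seen, had 4 reads in control, 4 under KD-1 and 23 under KD-2, a log2 ratio of 2.29 (0.87 to 4.41) in KD-2, the library through which it reached the minimum.

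Of the 41 assessed clustered protocadherins, 3 (7.32%) were over 1.5-fold higher in KD-1, where 8.63% of all genes were, and 5 (12.2%) were lower, where 5.62% were. The 3 higher were the gamma genes Pcdhga9, Pcdhgb5 and Pcdhgb8, and the 5 lower were Pcdhac2, Pcdhb5, Pcdhb7, Pcdhb11 and Pcdhb12. With the interval also required the counts were 3 higher (6.48% over all genes) and 3 lower (4.58% over all genes), without Pcdhb11 and Pcdhb12. In KD-2, 27 of 41 (65.9%) were higher, where 17.1% of all genes were, and 0 were lower, where 10.2% were (8.6% with the interval). The 27 were 17 of 18 beta genes, all but Pcdhb2, and 10 of 22 gamma genes. Without Pcdhb8, Pcdhb11 and Pcdhb12 they were 24 of 38 (63.2%), of which 14 of 15 beta genes. Of all 41, 25 (61.0%) were higher with the interval also required, Pcdhb8 and Pcdhb11 among them, against 14.9% over all genes.

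The 4 beta genes below the minimum mean had few reads. Pcdhb13 had 10, 5 and 14 reads in control, KD-1 and KD-2, Pcdhb10 had 6, 3 and 8, Pcdhb6 had 2, 8 and 8, and Pcdhb1 had 1, 1 and 4. All 4 had their highest count in KD-2, in Pcdhb6 with the same count in KD-1. Without Pcdhb22 the log2 ratio of the beta sum kept its direction in all 3 comparisons of 2 libraries.

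**Figure D2:**
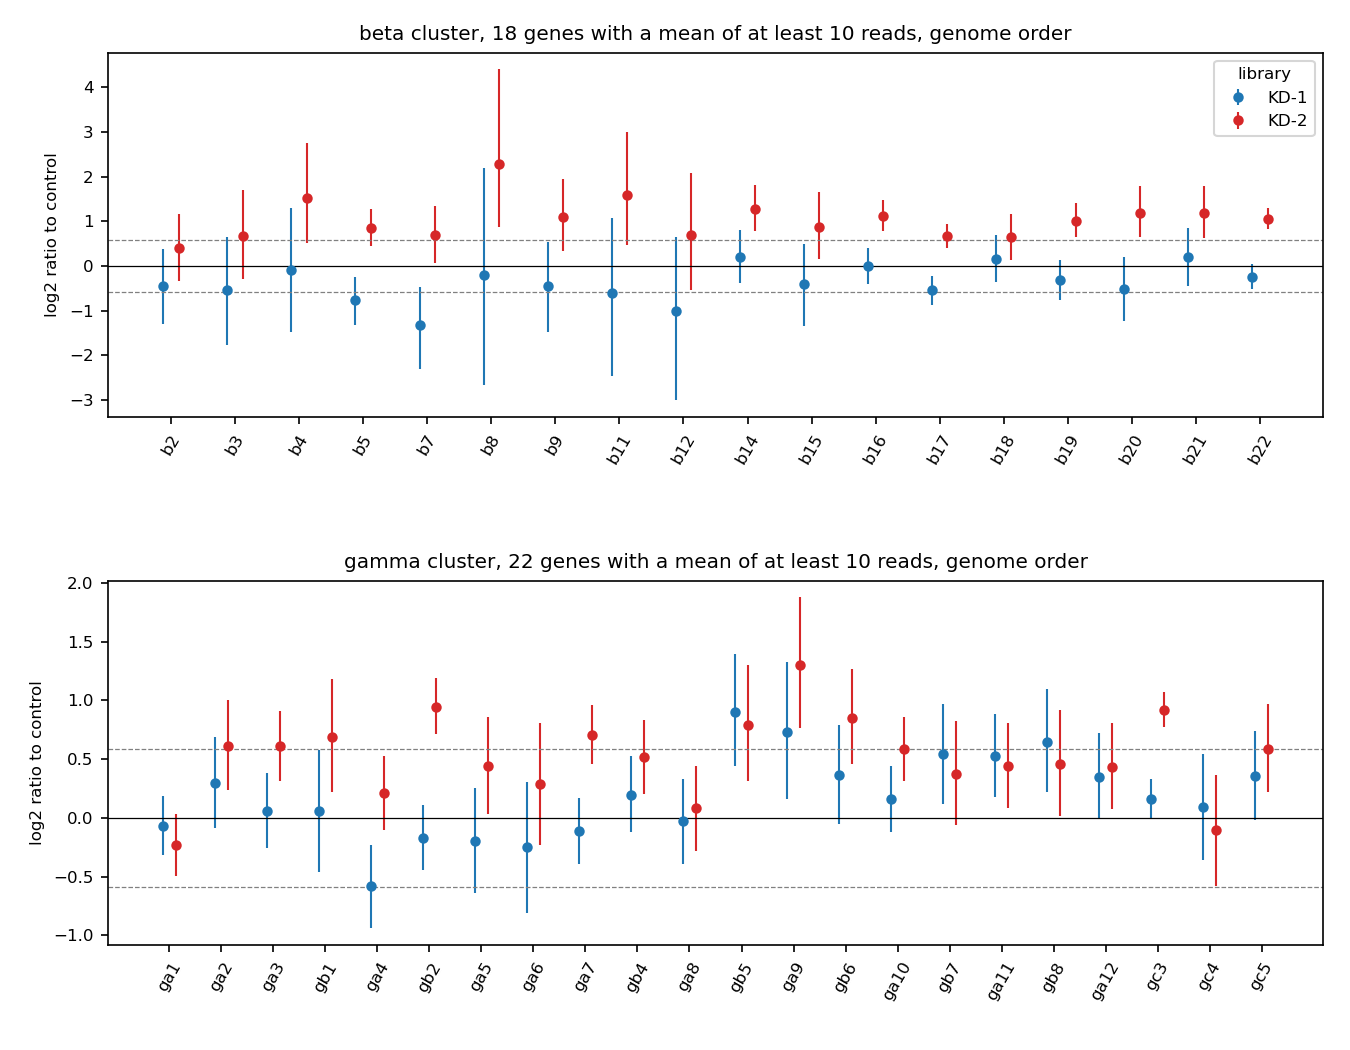
Log2 ratio of scaled reads to control for the 18 beta and 22 gamma genes that averaged 10 reads or more, in genome order, with KD-1 and KD-2 beside each other. Bars are 95% counting intervals and dashed lines mark 1.5-fold. In KD-2 all 18 beta genes and 20 of 22 gamma genes lie above 0, while in KD-1 15 beta genes lie below 0 and the gamma genes from Pcdhgb5 to Pcdhga12 lie above it.

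The gamma cluster was slightly above control under KD-1 and further above it under KD-2. Its 22 genes, all of them assessed, summed to 2967 reads in control, 3824 under KD-1 and 4811 under KD-2, a log2 ratio of 0.14 (0.07 to 0.21) under KD-1 and 0.59 (0.52 to 0.66) under KD-2. The 12 gamma-A isoforms had a log2 ratio of their sum of 0.05 (-0.05 to 0.15) under KD-1 and 0.42 (0.32 to 0.51) under KD-2. The 7 gamma-B isoforms, which differ from gamma-A isoforms in the sequence of the variable exon, had 0.28 (0.13 to 0.42) and 0.72 (0.59 to 0.86).

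Among the C-type isoforms of the cluster, Pcdhgc3 had 540 reads in control, 709 under KD-1 and 1101 under KD-2. Its log2 ratio was 0.16 (0.00 to 0.33) under KD-1 and 0.92 (0.77 to 1.07) under KD-2. Pcdhgc5 had 98, 147 and 159 reads and log2 ratios of 0.35 (-0.02 to 0.74) and 0.59 (0.22 to 0.97). Pcdhgc4, the isoform on which survival of many neurons depends, had 77, 96 and 77 reads and did not differ from control beyond counting error in either knockdown, at 0.09 (-0.36 to 0.54) and -0.11 (-0.58 to 0.37).

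The variable gamma isoforms with most reads did not move alike. Pcdhgb2 had 212 reads in control, 221 under KD-1 and 441 under KD-2, and Pcdhga7 had 203, 220 and 357. Both were below control in KD-1 only within counting error, at -0.17 (-0.45 to 0.11) and -0.11 (-0.39 to 0.17), and above it in KD-2, at 0.95 (0.71 to 1.19) and 0.71 (0.46 to 0.96). Pcdhga1, the first isoform of the cluster, had 250, 280 and 229 reads, and its log2 ratio of -0.23 (-0.50 to 0.03) in KD-2 was the lowest of all 41 assessed clustered protocadherins there.

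Pcdhgb5 and Pcdhga9, which are neighbours in the middle of the cluster, were over 1.5-fold higher in both knockdown libraries. Pcdhgb5 had 55 reads in control, 121 under KD-1 and 103 under KD-2, log2 ratios of 0.90 (0.44 to 1.40) and 0.79 (0.31 to 1.30). Pcdhga9 had 39, 76 and 104 reads, log2 ratios of 0.73 (0.16 to 1.33) and 1.30 (0.76 to 1.88). These were 2 of 41 assessed clustered protocadherins (4.88%) with both intervals leaving out no difference, where 2.03% of all genes met this rule, and both comparisons share the control.

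The gamma isoforms were also described by position along the cluster, at a split that was placed after the values were seen, so that its sums are a description only. Over the 19 gamma-A and gamma-B isoforms in genome order, Spearman's rho of the log2 ratio with the order was 0.63 under KD-1 and 0.02 under KD-2, as a description of isoforms that share 2 libraries. The 11 isoforms from Pcdhga1 to Pcdhga8 summed to 1533 reads in control, 1712 under KD-1 and 2289 under KD-2, with a log2 ratio of -0.07 (-0.17 to 0.03) under KD-1 and 0.47 (0.38 to 0.57) under KD-2. The 8 isoforms from Pcdhgb5 to Pcdhga12 summed to 719, 1160 and 1185 reads, with 0.46 (0.33 to 0.60) and 0.61 (0.48 to 0.75). In KD-1 all 8 of the second group and 4 of the 11 of the first had a positive log2 ratio, and the 3 gamma isoforms over 1.5-fold higher all lay in the second group. The groups overlapped, with log2 ratios of -0.58 to 0.30 in the first and 0.16 to 0.90 in the second.

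Within a cluster, the share of each isoform does not depend on how libraries are scaled, and most shares had intervals that overlapped those of control. Pcdhgc3 held 18.2% of gamma reads in control (exact Clopper-Pearson 95% interval 16.8 to 19.6), 18.5% under KD-1 and 22.9% (21.7 to 24.1) under KD-2. Pcdhgb2 held 7.15% (6.24 to 8.13) in control and 9.17% (8.37 to 10.02) in KD-2, while Pcdhga1 held 8.43% (7.45 to 9.48) and 4.76% (4.18 to 5.40). The shares of Pcdhga8 and Pcdhgc4 in KD-2 also lay below control with intervals apart. In KD-1 the gamma shares apart from control were those of Pcdhgb5, at 3.16% (2.63 to 3.77) against 1.85% (1.40 to 2.41), and of Pcdhga4, at 3.16% (2.63 to 3.77) against 5.22% (4.45 to 6.09).

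No beta isoform had a share whose interval lay apart from control in either knockdown. The part of the reads that would have to move between isoforms to turn 1 library's shares into another's was 9.51% for the beta cluster under KD-1 and 7.59% under KD-2. For the gamma cluster it was 7.57% under KD-1 and 9.25% under KD-2. These sizes include the counting error of the shares. The beta sum was 1.96-fold higher in KD-2 while Pcdhb22 held 21.4% of beta reads in control and 22.8% in KD-2.

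**Figure D3:**
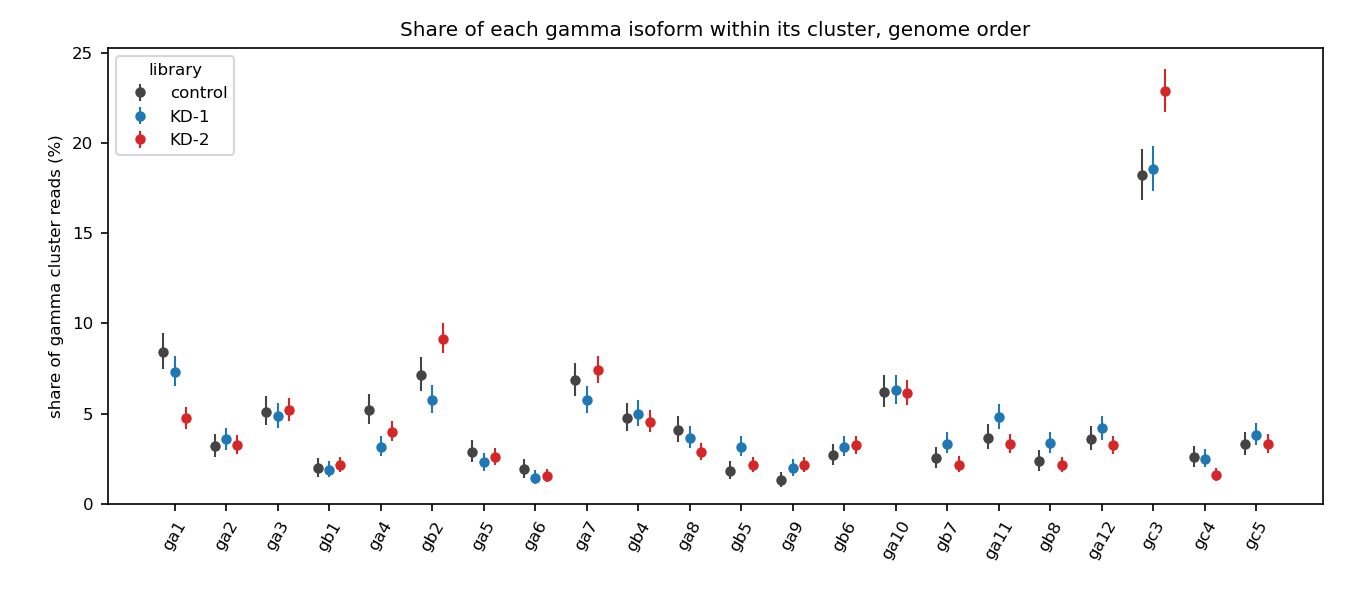
Share of each of the 22 gamma isoforms in the reads of the gamma cluster, in percent, for the 3 libraries in genome order, with exact Clopper-Pearson 95% intervals as bars. In KD-2 Pcdhgc3 and Pcdhgb2 lie above control and Pcdhga1 below it, and most other isoforms overlap between libraries.

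Most reads that could be given to 1 alpha isoform came from Pcdhac2, a C-type isoform known from serotonergic neurons. Pcdhac2 had 150 reads in control, 97 under KD-1 and 213 under KD-2, or 94.3% (89.5 to 97.4), 79.5% (71.3 to 86.3) and 85.9% (80.9 to 90.0) of all alpha reads, so that its share in KD-1 lay below control with intervals apart. Its log2 ratio was -0.85 (-1.24 to -0.48) under KD-1 and 0.40 (0.09 to 0.71) under KD-2. It was lower under KD-1 than under KD-2 by a log2 ratio of -1.25 (-1.62 to -0.90), so control lay between the knockdowns as it did for Pcdhb5 and Pcdhb7.

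The other 14 alpha genes summed to 9 reads in control, 25 under KD-1 and 35 under KD-2. Their sum had a log2 ratio of 1.25 (0.10 to 2.53) under KD-1 and 1.85 (0.77 to 3.09) under KD-2, in KD-1 against the direction of Pcdhac2. Pcdha10 had 0 reads in control, 6 under KD-1 and 12 under KD-2, and its share of alpha reads in KD-2, 4.84% (2.52 to 8.30), lay apart from control (0 to 2.29). The lower end of the counting interval of its log2 ratio was 1.37 for KD-2 and 0.0071 for KD-1. Pcdha12 had 3, 3 and 6 reads and Pcdha9 had 2, 2 and 6, while the other C-type isoform, Pcdhac1, had 1, 2 and 1. Pcdha5 had 1, 3 and 4 reads and Pcdha11 had 2, 3 and 4. Pcdha8 had 4 reads in KD-1 and 0 in the other libraries, and Pcdha1, Pcdha2 and Pcdha3 had at most 1 read in any library.

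Pcdha4, Pcdha6, Pcdha7 and Pcdha7-g had 0 reads in all 3 libraries. RefSeq lists read-through genes that run from the first 3 of these to the end of the gamma cluster, and Pcdha7-g is a synonym of the one at Pcdha7, Gm38667. They start 41 bases from Pcdha4, 6 bases from Pcdha6 and 9 bases from Pcdha7, and Gm37013 and Gm38666, the read-through genes at Pcdha4 and Pcdha6, also had 0 reads in every library. Reads on an exon that both genes hold could be counted as ambiguous, so 0 reads does not show that these isoforms were silent.

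Compared directly, KD-1 lay below KD-2 in most clustered protocadherins. Of the 41 assessed genes 24 (58.5%) were over 1.5-fold lower under KD-1 than under KD-2, where 16.1% of all genes were, and 0 were higher, where 13.9% were. The 24 were Pcdhac2, 17 beta genes (all but Pcdhb18) and 6 gamma genes, and the count was also 24 with the interval required, against 15% over all genes. By both rules they included Pcdhb8, Pcdhb11 and Pcdhb12, which reached the minimum only through KD-2, the library in which they were higher. The median log2 ratio was -1.31 over the 18 assessed beta genes, these 3 included, and -0.37 for gamma genes, against 0.12 over all genes. The gamma sum had a log2 ratio of -0.45 (-0.51 to -0.39).

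When both knockdown libraries were compared to control in 1 fit with edgeR's quasi-likelihood test, 0 of 55 clustered protocadherins with a read passed an FDR of 0.05, where 2 of 21164 genes (0.00945%) did. The lowest FDR of a clustered protocadherin was 1.00. Before adjustment, edgeR's p was under 0.05 for 1 of them, Pcdha10, against 264 (1.25%) over all genes. The Wald test of DESeq2 gave 0 of them by either criterion. This fit has 1 residual degree of freedom, and its spread comes from the difference of KD-1 and KD-2, which were on opposite sides of control in the beta cluster sum.

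The non-clustered protocadherins are related cell adhesion genes outside the 3 clusters, of which Pcdh1 is also counted among the neighbours described further on. The 12 genes summed to 12690 reads in control, 12668 under KD-1 and 22764 under KD-2, log2 ratios of -0.23 and 0.74. Of 11 assessed, 2 were over 1.5-fold higher (1 with the interval) and 2 lower under KD-1, where 8.63% and 5.62% of all genes were. Under KD-2 9 were higher (8 with the interval) and 0 lower, where 17.1% and 10.2% of all genes were. Pcdh7 had 8005, 8461 and 15011 reads (-0.15 under KD-1 and 0.80 under KD-2). Pcdh19 had 2300, 2049 and 3161 (-0.40 and 0.35), and Pcdh9 had 881, 908 and 1826 (-0.18 and 0.94). The 2 lower under KD-1 were Pcdh18, with 650, 468 and 1282 (-0.70 and 0.87), and Pcdh20, with 336, 174 and 565 (-1.18 and 0.64). The 2 higher were Pcdh1, with 38, 72 and 62 (0.69 and 0.59), and Pcdh8, with 10, 19 and 33 (0.67 and 1.57).

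Genes of promoter choice and silencing were measured for comparison. Of 24 such genes, 0 were over 1.5-fold from control under KD-1, where 8.63% of all genes were higher and 5.62% lower. Under KD-2 0 were higher and 3 lower, where 17.1% and 10.2% of all genes were. The 3 were the cohesin subunits Smc1a (log2 ratio -0.81) and Rad21 (-0.65) and the DNA methyltransferase Dnmt3b (-0.66). Ctcf had 21045, 23476 and 16297 reads, log2 ratios of -0.07 under KD-1 and -0.48 under KD-2. Smchd1, which keeps clustered protocadherin promoters methylated, had -0.04 and -0.39.

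Neighbouring genes and genes of the pathway were counted in the same way. Of 15 assessed neighbours on the same chromosome, 2 were over 1.5-fold higher and 0 lower under KD-1, where 8.63% and 5.62% of all genes were. Of these 2, Arap3 had 6, 22 and 6 reads in control, KD-1 and KD-2 and reached the minimum only through KD-1. Under KD-2 2 were higher (1 with the interval) and 1 lower, where 17.1% and 10.2% of all genes were. The 1 lower was Taf7, which lies between the beta and gamma clusters, with 14283, 15468 and 9558 reads and log2 ratios of -0.11 and -0.69. Of 18 genes for processing and signalling partners of clustered protocadherins, such as the protease Adam10 and the kinase Ptk2b, 1 was higher and 1 lower in each knockdown, beside the same shares of all genes. Adam10 had log2 ratios of 0.41 under KD-1 and 0.33 under KD-2.

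The fibroblast markers moved in the same directions as the beta sum and Pcdhac2, lower under KD-1 and higher under KD-2. Per 1000 reads of the 18 fibroblast markers there were 5.33 beta reads in control, 7.01 under KD-1 and 5.60 under KD-2. The gamma reads per 1000 were 15.7, 28.1 and 12.7, and the alpha reads 0.844, 0.895 and 0.657. On this scale, which was chosen after the values were seen, the log2 ratio in KD-2 was 0.072 for the beta sum, -0.31 for gamma and -0.36 for alpha, and in KD-1 it was 0.39 for beta, 0.83 for gamma and 0.085 for alpha. How much of the clustered protocadherin RNA came from feeder fibroblasts was not tested. Per 1000 reads of the 12 ES cell markers there were 2.77, 2.06 and 7.34 beta reads and 8.19, 8.26 and 16.7 gamma reads.

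**Figure D4:**
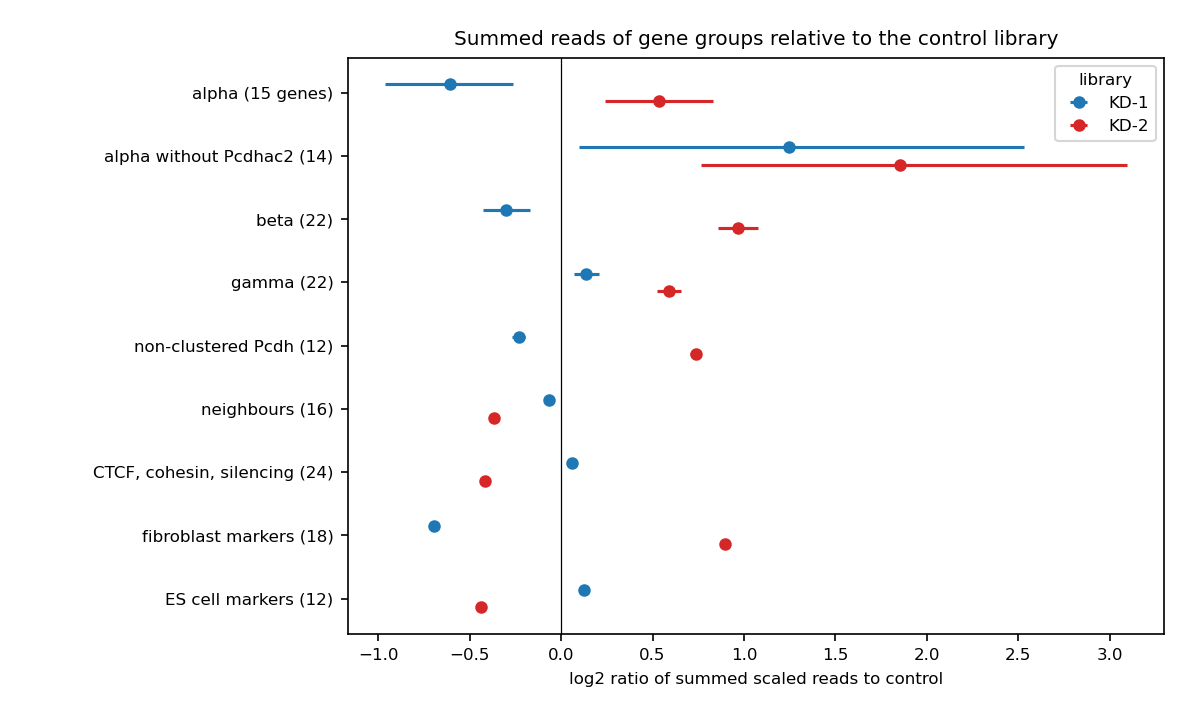
Log2 ratio to control of the summed scaled reads of gene groups in KD-1 and KD-2, with the number of genes in parentheses and 95% counting intervals as bars, which are narrower than the points for the larger groups. In KD-2 the beta (0.97) and gamma (0.59) sums and the non-clustered protocadherins (0.74) lie on the same side as the fibroblast markers (0.90). In KD-1 the beta sum (-0.30) lies on the side of the fibroblast markers (-0.70) and the gamma sum (0.14) does not.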

How the data were processed

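The authors trimmed the 50-base single-end reads of total RNA depleted of ribosomal RNA with Trim Galore 0.4.1, mapped them with TopHat2 2.1.1 to mm10 (GRCm38), and deposited the raw count of reads on each gene. The submitters' processing notes name HTSeq, and the methods name featureCounts. The strand and the treatment of overlapping genes are not given in the sources used here. Each file ends in 5 summary lines, which were left out of library sizes and tests. Reads on no gene were 21.8% of all counted reads in control, 24.1% under KD-1 and 21.5% under KD-2. Nothing gives a spread between cultures of the same condition.

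Counts were scaled by upper quartile with edgeR 4.0.16 in R 4.3.3. Log2 ratios used a pseudocount of 0.5 scaled reads, and ratios of sums used none. Intervals are at 95% and cover counting error only, and reads without molecular identifiers are not independent molecules. A count of 0 allows up to 3 reads, or 0.0415 per 1000000 reads in control. For both knockdowns as 1 group, edgeR's quasi-likelihood test against control was used, with Benjamini-Hochberg adjustment over all genes with a read, and with DESeq2 1.42.0. Countable length came from 50-base windows of coding GENCODE transcripts, which may differ from the UCSC models the authors counted on. Named genes were the 4 with most reads per cluster, all C-type isoforms, those at 0 reads, and those over 1.5-fold from control in both knockdowns with intervals that leave out no difference. Others were named after their values were seen. The members and gene lists were chosen with earlier results of these data known. The alternatives were other scalings, filters, folds, pseudocounts and members of a sum. Of the lists named, Wapl and Diaph1 were not matched. Primitive endoderm markers had a log2 ratio of their sum of -0.10 under KD-1 and 0.21 under KD-2. Most of their reads came from Pdgfra, at 0.68 under KD-2, and Lama1, at -0.44, and 4 of 7 assessed had a positive log2 ratio there. Neural markers had a log2 ratio of their sum of -0.03 under KD-1 and -0.49 under KD-2. No sequences are printed. Python 3.11.15, numpy 2.4.6, pandas 2.3.3, scipy 1.17.1 and matplotlib 3.10.9 were used.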

Additional observations from a re-analysis of the deposited data

Results flagged for a closer look

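Pcdhb5 and Pcdhb7 were the 2 clustered protocadherins that differed from control over 1.5-fold in opposite directions in the knockdowns, with counting intervals that leave out no difference, as 1.88% of all genes did. The log2 ratio of Pcdhb5 was -0.77 under KD-1 and 0.85 under KD-2. That of Pcdhb7 was -1.33 under KD-1 and 0.69 under KD-2. With 1 library per condition the difference between the knockdowns was not tested. The sum of the fibroblast markers had the same directions, -0.70 under KD-1 and 0.90 under KD-2.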

How the results depend on the processing

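No paired analysis was possible because each condition has 1 library and the labels give replicate number 1 only. Library totals moved the median of all genes by 0.16 in KD-2 and by -0.17 in KD-1 against KD-2, and DESeq2's size factors by -0.10 in the latter, on the log2 scale. With library totals the beta sum was 1.13 in KD-2 and -1.43 in KD-1 against KD-2, and the gamma sum 0.75 and -0.62. With DESeq2's size factors the gamma sum was -0.56 in KD-1 against KD-2, and 8 members in place of 5 were lower in KD-1 (5 in place of 3 with the interval). Scaled by fibroblast marker reads, a setting chosen after seeing the data, the sums in KD-1 and KD-2 were 0.085 and -0.36 (alpha), 0.39 and 0.072 (beta), and 0.83 and -0.31 (gamma), which turned alpha in both, beta under KD-1 and gamma under KD-2. This follows from the marker sum itself moving by -0.70 and 0.90.

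Without Pcdhac2 the alpha sum was 1.25 under KD-1, which turned its direction, 1.85 under KD-2 and -0.61 between the knockdowns. Without both C-type isoforms it was 1.30, 1.98 and -0.69. Without Pcdhgc3 the gamma sum was 0.51 in KD-2 and -0.37 under KD-1 against KD-2, and without C-type isoforms it was 0.52 under KD-2. Without Pcdhac2 the distance between the alpha shares was 48.9% under KD-1 and 40.3% under KD-2, in place of 14.8% and 8.68%, on 9 reads in control. A fold over 2 left 0 members higher (by both rules) and 2 lower under KD-1 (1 with the interval), and 11 higher under KD-2 by both rules. A minimum mean of 50 reads, which leaves fewer genes, left 2 lower in KD-1 and 15 lower in KD-1 against KD-2 by both rules. With no minimum 9 were higher in KD-1 (4 with the interval) and 3 in KD-1 against KD-2 (0 with the interval). For the counts of members at other scalings, folds, minimums and pseudocounts, no share over all genes is given here. They show only how the number of members depends on the setting. The median of the assessed members over both knockdowns, 0.42, ranged from -0.065 to 0.69 when 1 knockdown library was left out. In the other 109 values sums kept their direction and moved by less than their interval, and counts stayed within 1.5 times of the main one, from 19 to 36 for the 27 higher in KD-2. Of the values of named genes 113 stayed within their counting interval, and Pcdhgc3 moved to 1.08 in KD-2 with library totals. A mean under 10 reads left 14 alpha and 4 beta genes unassessed, and why their counts were low was not tested.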
